A study of Mus musculus with 8 samples.

Results

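Hspg2 (ENSMUSG00000028763.10) lies on the plus strand of chromosome 4, from 137024634 to 137126545 in mm9, and its cytosines with those of 10 kb on each side were examined in all 8 mice. At least 1 read covered 4685 cytosines there, of 10748112 in the genome, and 557 of them were in CG context, of 1469643. The gene is 101912 bases long in the GENCODE annotation, its longest transcript has 97 exons, and the neighbouring gene Ldlrad2 lies in the 3′ flank.

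Reduced representation bisulfite sequencing (RRBS) was carried out on livers of 1 female and 1 male each of C57BL/6J (B6), DBA/2J (DBA) and the F1 hybrids of both reciprocal crosses. BXD mice had a B6 mother and a DBA father, and DXB mice the reverse. All 8 mice were 16 weeks old and had been fasted for 16 h, and no further treatment is stated. MspI cuts DNA at CCGG, and bisulfite turns unmethylated cytosines into bases that are read as thymine, so the share of reads that keep the cytosine is the methylation level. As each strain is represented by 1 mouse of each sex, strain was compared with few animals, and a whole liver mixes the levels of all its cell types.

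Hspg2 encodes perlecan, a large secreted proteoglycan whose core protein carries heparan sulfate chains. Perlecan is built into basement membranes, where it binds laminins, nidogens and collagen IV and holds growth factors, and in liver it is found around vessels and bile ducts and along the sinusoids. In mammals most CGs within transcribed genes are methylated and CG-rich promoters usually are not. A CG is the same sequence on both strands, and the methylation of one strand is copied to the other after replication. A base change at either base removes a CG in one strain, and the cytosine that remains on one of the strands then stands outside CG context. A change from C to T is read in bisulfite data as an unmethylated cytosine.

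Most strain differences at CGs sit in places of 2 kinds, which are shown first as the reference (B6) sequence. Exceptions in intron 1 and the cytosines outside CG are described further on. The first is a stretch in exon 78, intron 78 and exon 79, where every CG that was called was methylated more in DBA. In the lines below, read 5′ to 3′, capitals mark the CGs called in at least 1 comparison.
Exon 78 and intron 78 (chr4:137114766-137114889, plus strand): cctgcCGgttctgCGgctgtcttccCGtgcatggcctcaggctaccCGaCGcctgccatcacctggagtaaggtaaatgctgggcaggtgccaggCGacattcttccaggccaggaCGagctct
Intron 78, farther on (chr4:137114939-137114950, plus strand): aagacCGgcctg
Exon 79 (chr4:137115005-137115089, plus strand): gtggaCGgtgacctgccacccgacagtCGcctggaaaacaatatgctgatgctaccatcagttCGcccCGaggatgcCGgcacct
In the first line all 7 CGs were called, in the second the 1 CG, and in the third 5 of 6. The other sort is CGs, alone or in groups of 2 or 3, that were methylated in B6 and mostly close to 0% in DBA, with CGs between or beside them that were methylated in both strains. The upstream flank holds 3 of them within 81 bases, with 2 uncalled CGs in lower case on the same line.
Upstream flank (chr4:137016645-137016736, plus strand): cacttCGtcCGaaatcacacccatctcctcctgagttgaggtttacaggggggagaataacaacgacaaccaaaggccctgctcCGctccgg
Intron 3 (chr4:137062169-137062199, plus strand): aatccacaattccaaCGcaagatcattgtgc
Exon 24 (chr4:137074854-137074884, minus strand): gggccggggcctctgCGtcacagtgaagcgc
Intron 96 (chr4:137125344-137125374, plus strand): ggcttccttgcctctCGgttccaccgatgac

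Most CGs of the gene were not called between the parents. In the female parents 250 CG cytosines had at least 10 reads in both mice, and 230 of these were not called. Of the uncalled ones 201 (87.4%) lay within 10 percentage points in B6 and DBA, and their median absolute difference was 2.93 points. Around the transcription start, methylation was mostly low. In the promoter, from 1000 bases before to 100 after the start of the longest transcript, 94 of 105 values with at least 10 reads were 10% or less, with a median of 0%. The highest was 53.8%, in the DXB female at 137024771. There the DBA male had 52.9% of 68 reads, the BXD female 40% and the DXB male 41.2%, and the female parents had no read. These are levels of the plus strand. On the minus strand of this CG, at 137024772, the B6 female had 0% of 19 reads, the DBA female 16.7% of 12 and the BXD male 5.26% of 19. The 28 promoter CGs tested in both female parents had a mean level of 1.53% in B6 and 1.38% in DBA, and none was called.

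Over the 41 CGs with at least 10 reads in every mouse, the mean level was 71.7 ± 1.34% (mean ± SD over mice, n = 8), with 69.2% as the lowest value, in the DBA male, and 73.4% as the highest, in the B6 female. Coding exons had 93.4 ± 1.12% over 14 CGs and introns 58.7 ± 2.40% over 22 CGs. This order turned over with at least 20 reads, at 85.2% and 88.6%, where other CGs were shared. The intron mean over 22 CGs includes CGs 243 to 288 bases after the start, such as 137024932 with 0% in every mouse. The DBA female had at most 16 reads at these, so they dropped out with at least 20 reads. In coding exons and in introns the B6, DBA and F1 mice overlapped. In the flanks, 5 CGs were shared. Their mean level was 81.4% and 79.1% in the B6 female and male, 56.3% and 57.1% in the DBA female and male, and 67.1% to 68.5% in the 4 F1 mice, but this rests on the called CG at 137016730. Over the other 4 CGs the B6 female and male had 78.1% and 74.3%, the DBA female and male 70.4% and 71.4%, and the F1 mice 69.7% to 73.2%, so that DBA and F1 mice overlapped. None of the promoter CGs had 10 reads in every mouse.

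The genes whose mean CG level ran most like that of Hspg2 over the 8 mice, of 3289 with at least 20 shared CGs, were Ttc7b (Pearson r = 0.927), the agouti gene a (r = 0.907), Pcdha11 (r = 0.891), Scrib (r = 0.885) and Tmem163 (r = 0.867). These correlations are descriptions over 8 mice, in which the same 2 parental genomes recur and library depth differs.

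A CG was called between the parents of a sex where both mice had at least 10 reads, the exact 95% binomial interval of each excluded the level of the other, and the levels lay more than 50 percentage points apart. In the female parents 12 CGs were higher in B6 (4.80% of 250, against 0.498% of the CGs tested in the genome) and 8 were higher in DBA (3.20%, against 0.0505%). These 20 calls were more than those of any other of 19285 protein-coding genes with a tested CG within 10 kb. Only 288 genes had a CG called higher in DBA, and 1 gene had more than the 8 of Hspg2. CGs of 1 stretch share reads, so the calls are not independent of each other, and 101 genes, Hspg2 included, had at least 250 tested CGs.

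**Figure D1:**
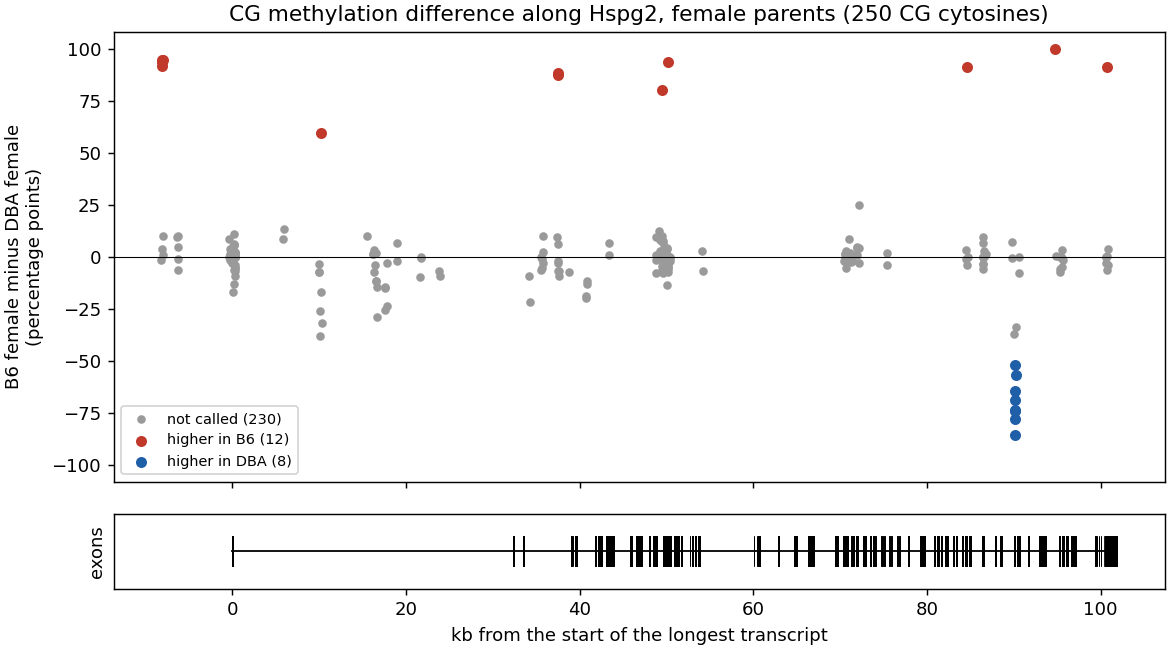
Difference in CG methylation between the B6 female and the DBA female (percentage points, y axis) against distance from the start of the longest transcript (kb, x axis), 1 point for each of 250 CG cytosines with at least 10 reads in both, with the exons drawn beneath. Of the 230 uncalled CGs in grey 201 lie within 10 points of 0. The 12 red ones stand alone or in small groups above 50, and the 8 blue ones fall together near 90 kb.

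In the male parents fewer CGs could be tested. Of 86 CGs, 3 were higher in B6 (3.49%, against 0.312% in the genome) and 2 were higher in DBA (2.33%, against 0.111%). With 20 reads 0 were higher in DBA and with 5 reads 8, and those higher in B6 were 6 with 5 reads and 7 with a difference above 30 points. Coverage in both males limited this comparison. The DBA male had 153 and the B6 male 228 CGs with at least 10 reads in the region, and only 86 had them in both. The DBA female had 250 such CGs and the B6 female 450. The library labelled B6 male carried B6 tags here. Of its cytosine calls from reads with a strain-specific SNP in this region 99.8% were B6. The share was 99.6% in the B6 female, 0.274% and 0.522% in the DBA female and male, and 52.6% to 56.6% in the F1 mice.

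The level was then fitted with limma against the number of B6 chromosomes, which is 2 in B6, 1 in BXD and DXB and 0 in DBA mice. Among 151 CGs with at least 10 reads in at least 6 mice, 4 were higher in B6 (2.65%, against 0.145% of 507773 CGs in the genome) and 5 were higher in DBA (3.31%, against 0.00689%), at adjusted p below 0.05 over all CGs and a fitted difference above 50 points. The 5 CGs higher in DBA lie within 45 bases of exon 78. Mice with too few reads drop out of these fits. All 5 were fitted on 7 mice, without the DBA male, which had 1 read there, so that the DBA end of each fit rests on the DBA female.

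Over the 3 comparisons and that of sorted reads described further on, 30 CG cytosines at 27 CG positions were called. The 15 that were higher in DBA, at 13 positions, all lie in 1 stretch of 313 bases, 90.1 kb from the start, with gaps of at most 66 bases between neighbours. No CG elsewhere in the region was called higher in DBA. The 15 that were higher in B6, at 14 positions, are spread from 8.03 kb before the start to intron 96.

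The stretch higher in DBA runs from 137114771 to 137115083. It has 19 measured CG cytosines at 14 positions. Adding all their reads, methylation was 17.4% and 9.36% in the B6 female and male, 80.5% and 77.2% in the DBA female and male, and 60.5%, 48.7%, 55.1% and 58.8% in the BXD female, BXD male, DXB female and DXB male. Both B6 mice were below all F1 mice, and both DBA mice were above them. The mice do not share all of these cytosines, since the DBA male had 114 reads in the sum and the BXD male 2307.

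Exon 78 codes for part of the perlecan core protein and holds 5 of the called CGs on the plus strand. At 137114791 the level was 14.1% and 9.26% in the B6 female and male, 100% in the DBA female (25 reads), and 52.2%, 53.0%, 56.7% and 55.1% in the BXD female, BXD male, DXB female and DXB male. The B6 mice, the F1 mice and the DBA female did not overlap. The fitted difference between B6 and DBA was -87.7 ± 2.69 points (SE, adjusted p = 0.000682 by limma, n = 7 mice). At the other 4 it ran from -82.1 ± 3.59 (adjusted p = 0.00209, at 137114779) to -76.9 ± 4.04 (adjusted p = 0.00404, at 137114812). Without the B6 female, 3 of the 5 were no longer past adjusted p = 0.05, and at 137114771 the fit lost it in 6 of 12 alternatives. Without the DBA female no DBA mouse was left to fit. The alternatives with a lower cutoff and without the DBA male repeat the levels of the main fit.

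The mean over these 5 CGs was 19.2% and 12.2% in the B6 female and male and 95.2% in the DBA female. In the F1 mice it was 58.6% in the BXD female, 56.6% in the BXD male, 58.7% in the DXB female and 60.9% in the DXB male. The F1 mean of 58.7 ± 1.77% (SD, n = 4) lay 3.24 points above the midpoint of the parents, 55.5%. These 5 CGs were called by the fit on B6 chromosome number, which used these F1 mice and favours levels near the midpoint. BXD and DXB mice, which differ in the mother's strain, overlapped at 2 of the 5 CGs. At the other 3 both DXB mice were above both BXD mice, by a gap of at most 3.74 points.

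Intron 78 holds 3 called CG positions. At the CG at 137114861 and 137114862, the B6 female had 11.6% on the plus and 16.8% on the minus strand, the DBA female 76.0% and 68.8%, and the BXD male 48.9% and 40.2%. Both strands of this CG were called in the same direction. At 137114944, called in the male parents, the plus strand had 27.3% and 10.5% in the B6 female and male and 82.9% in the DBA male (35 reads). Among F1 mice with at least 10 reads it had 88.9% in the BXD female, 50.7% in the BXD male and 26.7% in the DXB male, so that the BXD female lay above the DBA male, and limma did not call it (adjusted p = 0.780, n = 6). Its minus strand was not called, with 20.9% in the pooled B6 and 56.8% in the pooled DBA parents. In the female parents all 8 CG cytosines tested from 137114771 to 137114883 were called, with a mean of 17.4% in B6 and 86.6% in DBA, and none went the other way.

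In exon 79 the reads could be sorted to a chromosome in both B6 mice, both DBA mice and the BXD male. At 137115083 the B6 chromosome had 11.5% in the B6 female, 0% in the B6 male and 32.5% in the BXD male, and the DBA chromosome had 100% in the DBA female, DBA male and BXD male. The chromosomes did not overlap, also within the BXD male, where 40 B6 and 26 DBA reads came from the same liver. The DBA parents had 5 sorted reads each at this CG, and the B6 female and male 26 and 9. With 3 against 3 chromosome sets the exact two-sided permutation test gave p = 0.1, the smallest it allows. The other 4 CGs called there had 8.85% to 12.2% on B6 and 80.3% to 97.4% on DBA chromosomes (means of 3 sets).

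Within the BXD male, 5 of the 6 CGs with sorted reads from 137115011 to 137115083 ran from 15% to 32.5% in the B6 reads (36 to 40) and from 80.8% to 100% in the DBA reads (26). The CG at 137115025 and 137115026, in lower case in the exon 79 sequence, was the exception. Its level was 20% in the B6 reads and 0% in the DBA reads, and over all reads no mouse was above 12.1% at either strand. The nearest CG on each side of it was called higher in DBA. This CG was picked out after its values were seen.

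The difference faded at both ends. Before the stretch, at 137114753, the level was 56.3% and 60% in the B6 female and male, 93.6% in the DBA female and 66.0% to 72.7% in the F1 mice. After it, at 137115165 in intron 79, the B6 chromosome sets had 53.5 ± 16.7% (SD, n = 6) and the DBA sets 97.8 ± 3.94% (n = 5), with p = 0.00433 by the exact permutation test, the smallest for 6 against 5, and a difference under the 50 points that a call needs. At 137115185 every mouse was between 82.6% and 100%. These edge CGs were also chosen after their values were seen.

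**Figure D2:**
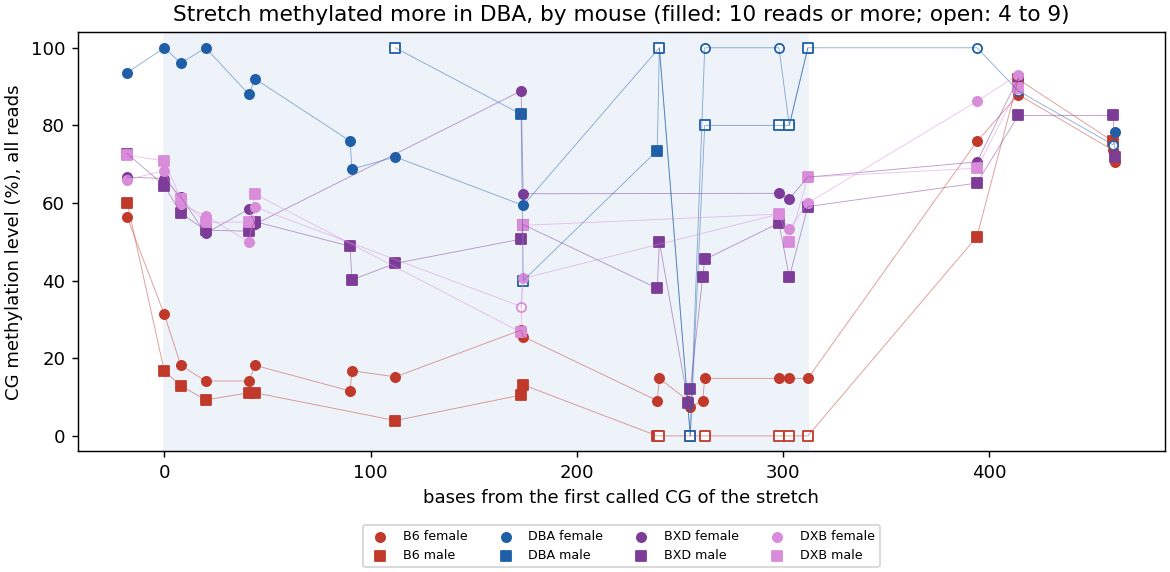
CG methylation level over all reads (%, y axis) against distance from the first called CG of the stretch (bases, x axis) in each of 8 mice, with filled symbols for at least 10 reads, open ones for 4 to 9, and the stretch shaded. From 0 to 313 bases the 2 B6 mice in red run lowest, the 2 DBA mice in blue highest and the 4 F1 mice between them at most CGs, apart from the CG near 255 bases where all are low.

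The CGs higher in B6 had another form. Of the 15 cytosines, 14 had 5% or less in the pooled DBA parents, while their B6 level ran from 43.5% to 100%. Within 100 bases of them lay 66 uncalled CG cytosines with at least 10 reads in both strains, counted once for each called CG they adjoin, and 61 of these had 50% or more in DBA. The opposite strand had 10 reads in both strains at 1 CG alone, at 137016650 and 137016651, where the B6 female had 91.6% and 94.7% and the DBA female 0% on each strand. At 137062238, the opposite strand of the called CG at 137062239, the B6 female had 91.8% of 73 reads and the DBA female no read, although it had 21 reads on the same strand at 137062232. In the BXD male all 99 reads at 137062238 were sorted to B6, against 98 B6 and 72 DBA reads at 137062232. The called strand had 4.55% of 22 reads in the DBA female. This pair was picked out after its values were seen.

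**Figure D3:**
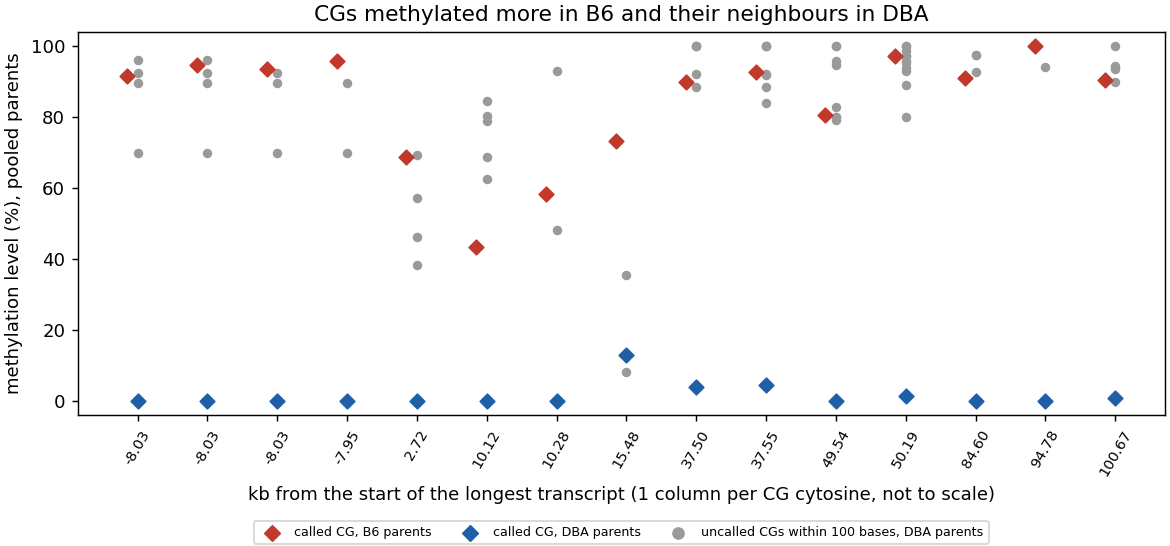
Methylation level in the pooled parents (%, y axis) at each of the 15 CG cytosines with a call towards B6, in the order of the gene (x axis, kb from the start), in B6 (red diamonds) and DBA (blue diamonds), with the uncalled CGs within 100 bases in DBA as grey points. In 14 columns the blue diamond is at 5% or less, and in most the grey points lie above 50%. Grey points have at least 10 reads in both strains.

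Upstream of the gene, 4 cytosines at 3 CG positions were called within 81 bases. At 137016730 the level was 94.7% and 98.2% in the B6 female and male, 0% in both DBA mice (49 and 77 reads), and 53.4%, 56.6%, 50% and 47.1% in the BXD female, BXD male, DXB female and DXB male. The B6, DBA and F1 mice did not overlap, and the fitted difference was 96.4 ± 3.52 points (SE, adjusted p = 0.000402 by limma, n = 8). Sorted reads gave 97.0 ± 3.10% on B6 and 1.14 ± 2.80% on DBA chromosomes (SD, n = 6 each), with p = 0.00216 by the exact permutation test. The call between chromosome sets used the same levels, so the test adds nothing to that call. Uncalled CGs within 100 bases of the 3 positions, with at least 10 reads in both strains, had 69.8% to 96.3% in DBA. Neighbours with fewer reads differed among themselves. At 137016744 the B6 female had 75% of 8 reads and the DBA female 0% of 7, and at 137016741 both had 100%. These 2 were picked out after their values were seen.

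A pair of CGs in intron 3, 56 bases apart, was also called. At 137062184 the B6 female and male had 87.7% and 94.4%, the DBA female 0% (21 reads), the DBA male 20% of 5 reads, and the F1 mice 40.3% to 54.4%. The fitted difference was 90.8 ± 5.70 points (SE, adjusted p = 0.00791 by limma, n = 7, without the DBA male), and was not past adjusted p = 0.05 without the B6 female or the B6 male. Here 7 uncalled CG cytosines near 137062239 had 84.0% to 100% in DBA.

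These clusters were set by the female parents, and the sorted reads of the F1 mice give a test in other animals. In the upstream flank, at the 1 CG with sorted reads in all 4 F1 mice, the B6 chromosome had 97.2 ± 3.68% and the DBA chromosome 1.71 ± 3.42% (SD, n = 4 each). In intron 3 they had 91.2 ± 4.91% and 0.625 ± 1.25%. Each difference gave p = 0.0286 by the exact two-sided permutation test, the smallest that 4 against 4 allows. Both chromosomes come from the same 4 livers, and with exchange within each mouse the exact permutation test gave p = 0.125, the smallest for 4 pairs, so that neither difference passed 0.05 when paired. All 4 mice had the direction of the female parents. In the stretch higher in DBA no CG of the female parents' cluster had sorted reads in the F1 mice.

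Of the 9 CGs higher in B6 outside both clusters, 1 lies in a coding exon and 8 lie in introns. In exon 24, at 137074869, the level was 95.2% and 100% in the B6 female and male, 1.35% in the DBA female (74 reads), and 52.5%, 32%, 39.5% and 38.6% in the BXD female, BXD male, DXB female and DXB male. The groups did not overlap, and 11 uncalled CG cytosines around it had 80.0% to 100% in DBA. The fitted difference was 99.8 ± 9.41 points (SE, adjusted p = 0.0370 by limma, n = 7), but the adjusted p was above 0.05 in 7 of 12 other fits. These were the fit with sex as a term and those without 1 of the B6 or F1 mice. The fits that kept it include those with a lower cutoff and without the DBA male, which repeat the levels of the main fit.

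In intron 21, at 137074221, the B6 mice had 80.0% and 82.1%, the DBA mice 0% (19 and 5 reads) and the F1 mice 38.1% to 46.1%, with a fitted difference of 80.7 ± 3.06 points (SE, adjusted p = 0.00131 by limma, n = 7). In intron 96, at 137125359, the B6 chromosome sets had 89.4 ± 2.47% and the DBA sets 0.918 ± 0.909% (SD, n = 3 each), which the exact permutation test cannot take below p = 0.1. Uncalled neighbours of both, with at least 10 reads in both strains, had 79.2% to 100% in DBA.

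The first intron held CGs with intermediate levels. At 137027402 the B6 female and male had 56.0% and 84.9%, the DBA male 0% (13 reads), and the BXD female, BXD male, DXB female and DXB male 38.1%, 76.6%, 31.9% and 34.7%. The BXD male lay between the B6 mice and apart from the other F1 mice, and the fitted difference of 66.5 ± 21.7 points did not pass (adjusted p = 0.688 by limma, n = 7). At 137034808 the B6 chromosome sets had 58.7 ± 20.3% (n = 6) and the DBA sets 2.22 ± 4.97% (n = 5), with p = 0.00433 by the exact permutation test. The call at 137034808 was made on these same sets, so the test is no separate evidence. The fit on B6 chromosome number did not pass there (31.4 ± 21.7 points, adjusted p = 0.898 by limma, n = 7), and over all reads 2 of 4 F1 mice lay outside the range of the pooled parents.

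Around 137034808 lay 5 uncalled neighbours, whose pooled parents differed by -38.9 to 2.56 points (B6 minus DBA). At 137034819 the B6 chromosome sets had 59.3 ± 10.3% (n = 6) and the DBA sets 85.8 ± 1.08% (n = 5), and at 137034827 they had 40.0 ± 11.3% and 78.5 ± 3.27%. Each had p = 0.00433 by the exact permutation test, and both were picked out after their values were seen. At 137034785 and 137034820 the exact permutation test gave p = 0.108 and p = 0.152, and 137034718 had no sorted reads. The remaining CGs, named after their values were seen, were 137034959 and 137040160 in intron 1, 137109281 in intron 73 and 137119463 in intron 85. At 137040160 the DBA parents had 12.9% against 73.3% in B6, and the 2 uncalled neighbours were also lower in DBA, by 31.9 and 35.6 points, so this was the 1 CG of the 15 without a neighbour above 50% in DBA.

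Whether a base change in DBA removes these CGs was not tested, since the DBA sequence was not analysed here. The study left C/T differences out of its SNP calls, so for a C read as T in DBA the loss of the cytosine and the loss of its methylation cannot be told apart on 1 strand. Reads that align less well in DBA would be seen as missing coverage. Of the 450 CGs with at least 10 reads in the B6 female, 103 (22.9%) had no read in the DBA female, against 6.83% in the genome. In the reverse direction there were 0 of 250, for which no share of the genome was taken. The B6 female also had more cytosine calls in the region, 268066 against 121320 in the DBA female. The part of uneven coverage in the calls was not tested.

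Reads that hold a strain-specific SNP were sorted by the authors to the B6 or the DBA chromosome, which gives 6 sets of each strain. The tests treat the sets as separate, although both sets of an F1 mouse come from 1 liver. A set needed 4 sorted reads and each strain 3 such sets, and a call needed p below 0.05 by the study's test on the levels and means more than 50 points apart. Of 85 CGs tested 5 were higher on B6 chromosomes (5.88%, against 4.62% of the CGs tested in the genome) and 5 were higher on DBA chromosomes (5.88%, against 0.114%). The share higher on B6 was close to that of the genome. The 5 CGs higher on DBA are those of exon 79, and none was called without the B6 female, the B6 male, the DBA female, the DBA male or the BXD male, since then under 3 sets remain. For the same reason these 5 CGs could not be tested with at least 10 sorted reads or in the F1 mice alone.

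**Figure D4:**
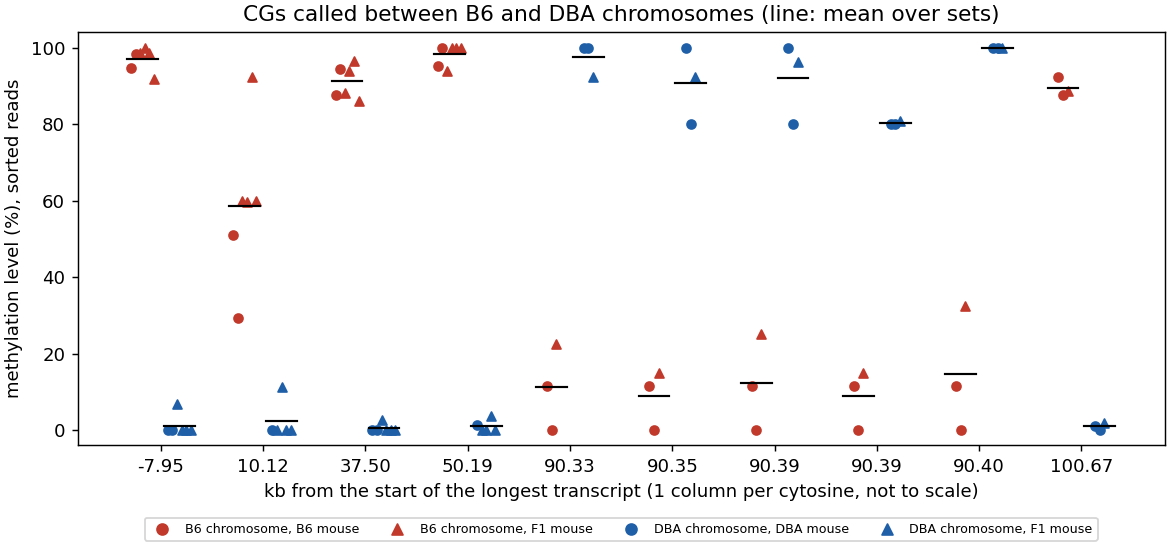
Methylation level in sorted reads (%, y axis) at the 10 CGs called between chromosomes, in the order of the gene (x axis, kb from the start), on B6 (red) and DBA (blue) chromosomes of parents (circles) and F1 mice (triangles), 1 point for each chromosome set with at least 4 reads and a line at the mean. At 5 CGs near 90.4 kb blue lies above red, and at the other 5 red lies above blue, with no overlap in any column.

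At the 10 called CGs both chromosomes had at least 4 sorted reads in 22 pairs of an F1 mouse and a CG, and all 22 went in the direction of the call, which used these sets as well. Over all reads, F1 levels at 29 of the 30 called CGs lay between the pooled parents in 69 of 73 values. The median distance of the F1 mean from the midpoint of the parents was 3.67 points at the 15 CGs higher in DBA, from -5.56 to 7.55. At 14 CGs higher in B6 it was 4.86 points, from -10.3 to 29.2, with the largest distances at 137040160 and 137034808.

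Parent of origin was compared between maternal and paternal chromosomes of the 4 F1 mice at 45 CGs, and 0 were called at p below 1e-06 by the study's test (0.0196% in the genome). By the same test 2 CGs had an unadjusted p below 0.05, and limma called 0, with 2 at an unadjusted p below 0.05. The median absolute difference was 3.03 points and the largest was 38.5 points.

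A parent and an F1 mouse were compared on the same strain of chromosome in 16 pairs, by the rule for the parents with at least 4 sorted reads. Of 815 such comparisons in the region 5 differed by 50 points or more (0.613%, against 0.598% in the genome). In 3 of them, at 137034785, 137034808 and 137034820 in intron 1, the B6 male had 29.2%, 29.2% and 45.8% of 24 reads and the DXB female 92.3%, 92.3% and 100% of 13 reads. The other 2 were at 137073618, where the DBA female had 25.0% of 4 reads and the BXD and DXB females 83.0% and 89.7%. Pairs share mice, and 0 of these CGs lie in the stretch higher in DBA. At the CGs called there between chromosome sets, only the BXD male among the F1 mice had at least 4 sorted reads of both chromosomes. Few comparisons were therefore possible in the stretch, and the 0 says little about it.

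Females and males were compared at 161 CGs, with 0 called at p below 0.001 and a difference above 20 points by the study's test (0.148% in the genome). By that test 5 had an unadjusted p below 0.05, and limma called 0, with 8 at an unadjusted p below 0.05.

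Outside CG context liver DNA is rarely methylated, and 1790 such cytosines were tested in the female parents. The 4 called were all higher in DBA (0.223%, against 0.0279% in either direction in the genome). In the male parents 5 of 564 were called, again all higher in DBA (0.887%, against 0.0333%). Between chromosome sets 9 of 451 were called, all higher on DBA chromosomes (2.00%, against 0.679% in that direction). The 9 include every cytosine called in the parents. In the reference, 7 of the 9 are followed by A, 1 by T and 1 by C. Examples are shown with the cytosine in capitals. The reference has no CG at these cytosines, so no level of an opposite strand was compared.
Exon 4 (chr4:137063733-137063753, plus strand): gtaaattttaCtcggtccatt
Intron 48 (chr4:137096016-137096036, minus strand): agggaggcccCatacctgaga
Intron 55 (chr4:137098932-137098952, minus strand): tagtagactaCaattcatacc
Intron 79 (chr4:137115178-137115198, plus strand): gaacatacgcCaactcaccca

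At 137096026 in intron 48 the level was 0% in both B6 mice (94 and 68 reads), 88.9% and 95.4% in the DBA female and male, and 42.0%, 47.9%, 42.3% and 37.5% in the BXD female, BXD male, DXB female and DXB male. B6, F1 and DBA mice did not overlap. The sorted reads gave 0% in each of 6 B6 sets and 88.9 ± 8.16% in 6 DBA sets (SD), with p = 0.00216 by the exact permutation test. At 137115188, in the intron after the stretch higher in DBA, B6 sets had 0.292 ± 0.716% (n = 6) and DBA sets 91.5 ± 6.79% (n = 5), with p = 0.00433 by the exact permutation test. Both tests use the sets that made the calls and were not adjusted over the 451 cytosines tested, so they are no separate evidence.

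At the 9 cytosines the mean ran from 65.8% to 98.5% on DBA chromosomes and was at most 2.64% on B6 chromosomes. In the F1 mice all 27 pairs of a mouse and a cytosine with reads of both chromosomes went the same way, which is the direction that the call, made with these sets, had selected. A base change that places a G after such a cytosine would make it a CG in DBA, and whether DBA has one was not tested.

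**Figure D5:**
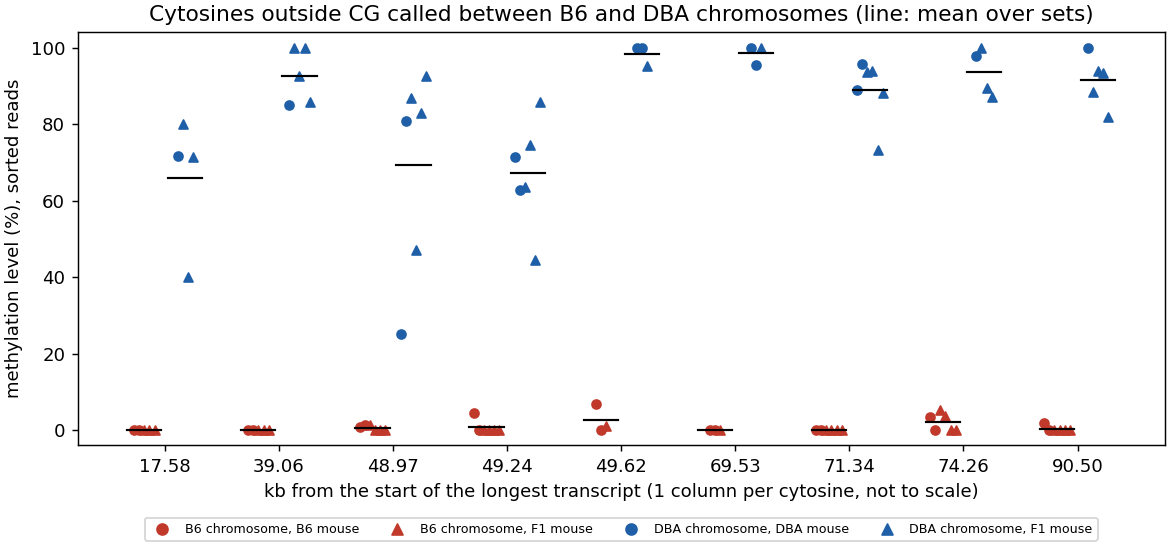
Methylation level in sorted reads (%, y axis) at the 9 cytosines outside CG called between chromosomes, in the order of the gene (x axis, kb from the start), on B6 (red) and DBA (blue) chromosomes of parents (circles) and F1 mice (triangles), with a line at the mean. The red points lie at or near 0 in every column and the line of the DBA sets lies between 65.8% and 98.5%.

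Other genes of the basement membrane and of heparan sulfate were set beside Hspg2 in the female parents. The list has 57 genes, all with tested CGs. Among 4366 CGs within 10 kb of them 21 were higher in B6 (0.481%, close to the 0.498% of the genome) and 0 were higher in DBA (0.0505% in the genome, so a count of 0 is near that share). In the fit on B6 chromosome number limma called 5 of 2587 CGs, each of them higher in B6 (0.193%, against 0.145% in the genome). A call was present at 12 of the 57 genes (21.1%), against 2305 of 19285 protein-coding genes (11.95%), which differ in length and in the number of CGs tested. Of the 11 other heparan sulfate proteoglycans 3 had a call, with 2 CGs at Sdc2, a syndecan of the cell surface. Of the 23 basement membrane partners 4 had a call, with 4 CGs at Fbln1, a fibulin, and 2 at Lama1, a laminin chain. Of the 23 genes for heparan sulfate synthesis and turnover 5 had a call, with 3 CGs at Hs2st1 and 2 each at Ext1 and Hs6st3, which encode enzymes that build or sulfate the chain. The interval rule gives no p-value, as there is 1 mouse a side.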

How the data were processed

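RRBS libraries were made by the authors from MspI-digested liver DNA of 8 mice, and reads with a unique position were aligned to mm9 with BS Seeker. SNPs other than C/T were called from pooled reads and used to sort reads to the B6 or DBA chromosome. For each mouse, cytosine and read class (B6, DBA, non-polymorphic, unknown), the authors deposited raw counts of methylated and unmethylated reads. They also deposited the level as a fraction from 0 to 1. The authors' 4 tables of their own comparisons, with mean fractions, differences and p-values, were not used.

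Counts of all classes were added for comparisons of mice, and sorted counts were used for comparisons of chromosomes. Each strand of a CG was 1 site. Every rule for a call was run on the whole genome. Gene parts came from GENCODE on NCBIM37, which is mm9, and sequences from that genome. Python 3.11.15, numpy 2.4.6, scipy 1.17.1, R 4.3.3 and limma 3.58.1 were used. The interval rule, the study's two-sample test and limma were tested on simulated data.

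Clusters were runs of at least 2 called CG positions of 1 direction in the female parents, with gaps of 100 bases or less. Named CGs were those in clusters, those called between chromosome sets and the 10 largest fitted differences. Cytosines outside CG were named where called between chromosome sets. The genes most like Hspg2 were the 5 with the highest correlation of mean level, and listed genes were named at 2 or more calls. The gene, the lists and the rules were chosen with earlier results of these data known. Coverage in the region ran from 40.3 to 82.0 reads per CG with at least 10 reads. Intervals cover counting error only. As each mouse has 1 library, p-values measure the spread between these 8 mice.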

Additional observations from a re-analysis of the deposited data

Results flagged for a closer look

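Among 46 groups of 4 to 6 values at the named cytosines and parts of the gene, 8 held a value apart from the rest of its group by Dixon's test, which flags about 1 in 20 groups by chance. At 137027402 the BXD male had 76.6%, against 31.9% to 38.1% in the other F1 mice. At 137073656, outside CG, the BXD male had 6.50%, against 32.9% to 36.9%. Of its 123 reads there, 106 were sorted to B6, at 0%, and 17 to DBA, at 47.1%. The BXD female had 82 B6 and 53 DBA reads. At 137096026, outside CG, the DBA chromosome of the DXB female had 73.3%, against 88.2% to 95.6% in the other sets.

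In the remaining flagged groups every other set was at 0, where Dixon's test flags any single value above 0, however small. On DBA chromosomes the BXD female had 6.85% at 137016730 and 2.50% at 137062184, and the BXD male had 11.1% at 137034808. On B6 chromosomes the B6 female had 4.35% at 137073921 and 1.75% at 137115188, both outside CG.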

How the results depend on the processing

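The 24 cytosines called between female parents ranged from 20 to 36 over 5 alternatives. In male parents 10 were called, 21 with 5 reads and 5 with 20 reads, and the 2 CGs among them higher in DBA became 8 and 0. Between chromosome sets 19 were called, 12 with at least 10 sorted reads and 12 in the F1 mice alone, and 11 to 19 when a mouse was left out. With at least 10 sorted reads or in the F1 mice alone, the 5 CGs higher in DBA had too few sets to be tested. The calls were 11 without the B6 female, the B6 male or the DBA female, and 12 without the DBA male or the BXD male. By number of B6 chromosomes 9 CGs were called, 1 with 10 reads in all 8 mice, and 1 to 9 when a mouse was left out, with 4 without the B6 female and 1 without the DBA female. Of 5 CGs changed between a parent and an F1 mouse, 3 were left at 10 sorted reads and 2 without the B6 male. Calls of sex and of parent of origin stayed at 0 in the alternatives run.

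The difference between F1 chromosomes was 94.0 to 96.8 points upstream and 88.5 to 92.2 points in intron 3 when an F1 mouse was left out, where p cannot go below 0.1. Paired within each F1 mouse, a test added after the values were seen, the differences of 95.5 and 90.5 points had p = 0.125 by the exact permutation test. At 9 named CGs past adjusted p = 0.05 by limma, 92 of 109 other fits stayed past it, 17 did not and 0 reversed. Some of these fits repeat the levels of the main fit, so the 92 overstate how far the calls were tried. The cutoff of 20 points changes no p, and leaving out the DBA male changes no level where it had too few reads. With 5 reads, 20 reads and all CGs of each mouse, the mean level was 63.9%, 75.4% and 68.6% in the whole region, 90.0%, 85.2% and 83.2% in coding exons and 48.6%, 88.6% and 65.1% in introns, as the set of CGs changed. Introns were then above coding exons at 20 reads, where the intron CGs 243 to 288 bases after the start had dropped out. The labels carry no replicate numbers, so mice were not paired by number, and with sex as a term 7 of 9 CGs were called. The limma calls in the stretch higher in DBA did not use the DBA male, so leaving it out kept the same levels. Fewer of them were called without the B6 female, and without the DBA female they could not be fitted.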
